A study of Mus musculus with 6 samples.

Results

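The genes described here are 10 members of the RANKL system and of osteoclast differentiation, measured in cartilage of the mouse tibia. They are Tnfsf11 (RANKL), its receptor Tnfrsf11a (RANK) and its decoy receptor Tnfrsf11b (osteoprotegerin), the growth factor Csf1 and its receptor Csf1r, the transcription factor Nfatc1, the fusion proteins Dcstamp and Ocstamp, and the costimulatory receptors Oscar and Siglec15. Members were found by matching the RefSeq accession of every non-control spot to these symbols, which gave 15 probes, and all 10 genes were among the 25494 features tested. Total RNA of 3 C57BL/6 control mice and of 3 C57BL/6 mice labelled ADAM10 flox/flox-Col2a1-Cre (called mutants here) was hybridised to Agilent 1-colour arrays, 1 array per mouse. Each array is from a different mouse, per the series design. The labels do not say which alleles the controls carry, and they give neither age nor sex. The Col2a1 promoter drives Cre in cells of the chondrocyte lineage, whereas osteoclasts descend from blood-forming cells and so lie outside that lineage. Adam10 encodes a surface protease that cuts the outer parts off membrane proteins.

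Osteoclasts form by fusion of precursors of the monocyte lineage, which need CSF1 to survive and RANKL to differentiate. RANKL is a membrane-bound ligand made by osteocytes, osteoblasts, hypertrophic chondrocytes, marrow stroma and lymphocytes, and osteoprotegerin is secreted and keeps it from RANK. RANK signalling, together with receptors that signal through ITAM adaptors, switches on NFATc1, which drives the genes for fusion and resorption. RANKL itself can be shed from the cell surface, and ADAM10 is among the proteases described as doing so. The arrays measured transcripts and carry no information on shedding.

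Values below are levels of log2 signal relative to the 75th percentile of the array (0 is that percentile), and differences are mutant minus control. Levels of different probes are not on a common scale, so no gene's level is set against another's. On the 6 arrays 62.4% to 65.4% of spots were well above background and 0 were saturated. All lay on 1 slide and were scanned together. The controls shared the upper row with mutant 1, whereas mutants 2 and 3 were in the lower row, so row and genotype are partly tied. Mutant 2 and control 1 stood apart from the other arrays, with limma array weights of 0.281 and 0.335 against 0.807 to 3.62. The members' differences are therefore also given without mutant 2, the array on which most of these genes were lowest. That choice rests partly on the members' own values, and it made most of the differences smaller in size. The precision of every value is limited by the number of arrays.

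Most of the 10 genes read lower in mutants, but none passed the test across all features. The difference was below 0 for 9 of the 10 genes, against 40.0% of all features, with a median of -0.80 against 0.04 over all features. In the limma fit 0 of the 10 genes had a Benjamini-Hochberg adjusted p below 0.05 over all features, where 0% of features were called. Oscar was the only 1 of the 10 lower at an unadjusted p below 0.05 (1.89% of all features), and 0 were higher at that p (1.55% of all features). That count depends on the setting. It was 0 without control 2, 2 without mutant 2 (Oscar and Siglec15), 5 without mutant 3, 3 with normexp and percentile scaling (Dcstamp, Oscar and Siglec15) and 7 with array weights, where 0.835%, 1.84%, 2.99%, 2.18% and 8.74% of all features were lower at that p. Without both control 1 and mutant 2 it was 6 (Dcstamp, Ocstamp, Oscar, Siglec15, Tnfrsf11a and Tnfsf11), where 3.26% of all features were lower at that p. In that setting the members' median was -0.46, and 0 features passed the adjusted threshold. In the main limma fit the adjusted p of every member lay between 0.987 and 0.992. Every mutant lay below every control for 3 of the 10 genes, Csf1r, Oscar and Siglec15, where 3.75% of all features did so. Mutant 2 was the lowest of the 6 arrays for 9 of the 10 genes, against 18.7% of all features. Averaged over mutants 1 and 3 alone, the median over the 10 genes was -0.37, and on mutant 2 alone it was -1.73, both against the mean of the controls. Within the upper slide row, mutant 1 minus the controls was -1.24 for Siglec15, -0.99 for Dcstamp, -0.61 for Ocstamp, -0.52 for Csf1r, -0.45 for Oscar, -0.43 for Tnfsf11, -0.40 for Tnfrsf11a, -0.23 for Csf1, 0.10 for Nfatc1 and 0.19 for Tnfrsf11b. Fewer cells of a type and less RNA per cell cannot be told apart in these bulk samples.

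**Figure D1:**
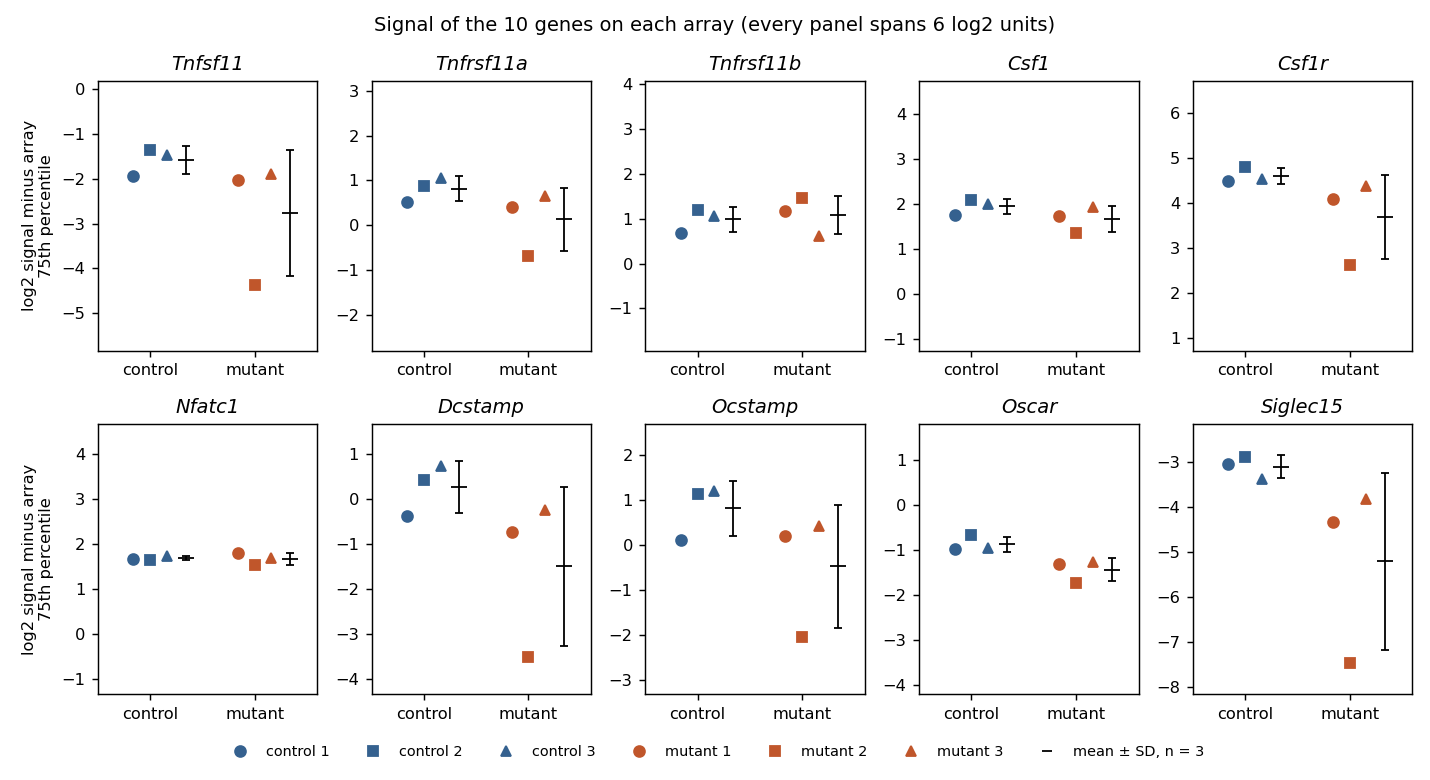
Level of each of the 10 genes (log2 signal minus the array's 75th percentile, vertical axis) in controls (blue) and mutants (orange), 1 point per mouse, with black bars for the mean ± SD of 3 arrays. The square of mutant 2 lies below the other 5 arrays in 9 panels, the exception being Tnfrsf11b, and every panel spans the same number of log2 units.

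The ligand Tnfsf11 read -1.95, -1.36 and -1.48 on controls 1 to 3, and -2.02, -4.38 and -1.89 on mutants 1 to 3. Control 1 lay between mutants 1 and 3, so the groups overlapped, and mutant 2 was far below the rest. The group levels were -1.59 ± 0.31 (SD, n = 3) and -2.76 ± 1.40 (SD, n = 3). The difference was -1.17 (SE 0.66, 95% interval -2.76 to 0.42), with an adjusted p of 0.987 in limma. Without mutant 2 it was -0.36, without control 1 it was -1.34, and without both arrays it was -0.54. With normexp background correction and percentile scaling it was -0.67.

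The receptor Tnfrsf11a, carried by osteoclast precursors, read 0.52, 0.89 and 1.06 on controls 1 to 3, and 0.42, -0.67 and 0.65 on mutants 1 to 3. Mutant 3 lay above control 1, so these groups overlapped too. The difference was -0.69 (SE 0.36, 95% interval -1.55 to 0.18) and without mutant 2 it was -0.29. The decoy receptor Tnfrsf11b read 0.68, 1.20 and 1.06 on controls 1 to 3, and 1.17, 1.45 and 0.61 on mutants 1 to 3. Mutant 2 was the highest of the 6 arrays for this gene and mutant 3 the lowest. The difference was 0.10 (SE 0.25, 95% interval -0.51 to 0.70), smaller than the SD of either group, and turned to -0.09 without mutant 2, to -0.05 without control 1 and to -0.05 with array weights.

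Within each array, the log2 of Tnfsf11 minus that of Tnfrsf11b shows whether both probes changed equally, and is no molar ratio. Across controls it was nearly constant, at -2.63, -2.56 and -2.54. It was -3.19, -5.83 and -2.50 on mutants 1 to 3. Mutants 1 and 2 were thus below all controls and mutant 3 was above them. The difference was -1.27, with an exact two-sided permutation p of 0.4, and the design cannot give a p under 0.1. Leaving out mutant 2 gave -0.27. Adjusted over the 7 ratios computed here, the permutation p was 0.467.

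The growth factor Csf1, which keeps monocyte-lineage cells alive, was measured by 3 probes, and 1 of them was printed as 10 spots on every array. That probe read 1.76, 2.08 and 2.01 on controls 1 to 3, and 1.72, 1.35 and 1.93 on mutants 1 to 3. The SD of log2 signal over its 10 spots was 0.035 to 0.063 within an array, whereas the SD over mice was 0.17 in controls and 0.29 in mutants. All 10 spots on mutant 2, at most 1.45, lay below the lowest spot of any other array, 1.61. The groups overlapped, and the difference was -0.28 (SE 0.19, 95% interval -0.73 to 0.16), or -0.13 without mutant 2. The other Csf1 probes gave -0.20 and -0.17.

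The CSF1 receptor Csf1r, present on all cells of the monocyte and macrophage lineage, was measured by 3 probes of 1 accession, and these did not move alike. The brightest, A_55_P2025078, read 4.48, 4.80 and 4.52 on controls 1 to 3, and 4.08, 2.62 and 4.37 on mutants 1 to 3. All mutants lay below all controls, with the gap between mutant 3 and control 1 the smallest. Its difference was -0.91 (SE 0.45, 95% interval -1.98 to 0.16), and -0.38 without mutant 2. Probe A_52_P602091 read -0.68, -0.36 and -0.54 on controls and -1.10, -3.24 and -1.15 on mutants, again with no overlap. Its difference was -1.30 (SE 0.57), and -0.60 over mutants 1 and 3. Probe A_55_P2025073 read 0.73, 0.88 and 0.99 on controls and 0.57, 0.79 and 0.71 on mutants, so that mutant 2 was the highest mutant and lay above control 1. Its difference was -0.18 (SE 0.13). On every array A_55_P2025073 was the middle of the 3 probes in level. The median over the 3 probes was therefore this probe again, with the same difference of -0.18. The position of these probes in the transcript was not analysed here.

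The transcription factor Nfatc1, which osteoclast precursors induce under RANKL, showed the smallest difference of the 10 genes. Its brighter probe read 1.68, 1.66 and 1.74 on controls 1 to 3, and 1.80, 1.54 and 1.69 on mutants 1 to 3. Mutant 1 was the highest and mutant 2 the lowest of the 6 arrays. The difference was -0.02 (SE 0.12, 95% interval -0.31 to 0.27), and turned to 0.05 without mutant 2, to 0.01 without control 3 and to 0.09 with array weights. A second probe, of another Nfatc1 accession, differed by -0.23 (SE 0.21) and was lowest on mutant 2 at 0.60.

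**Figure D2:**
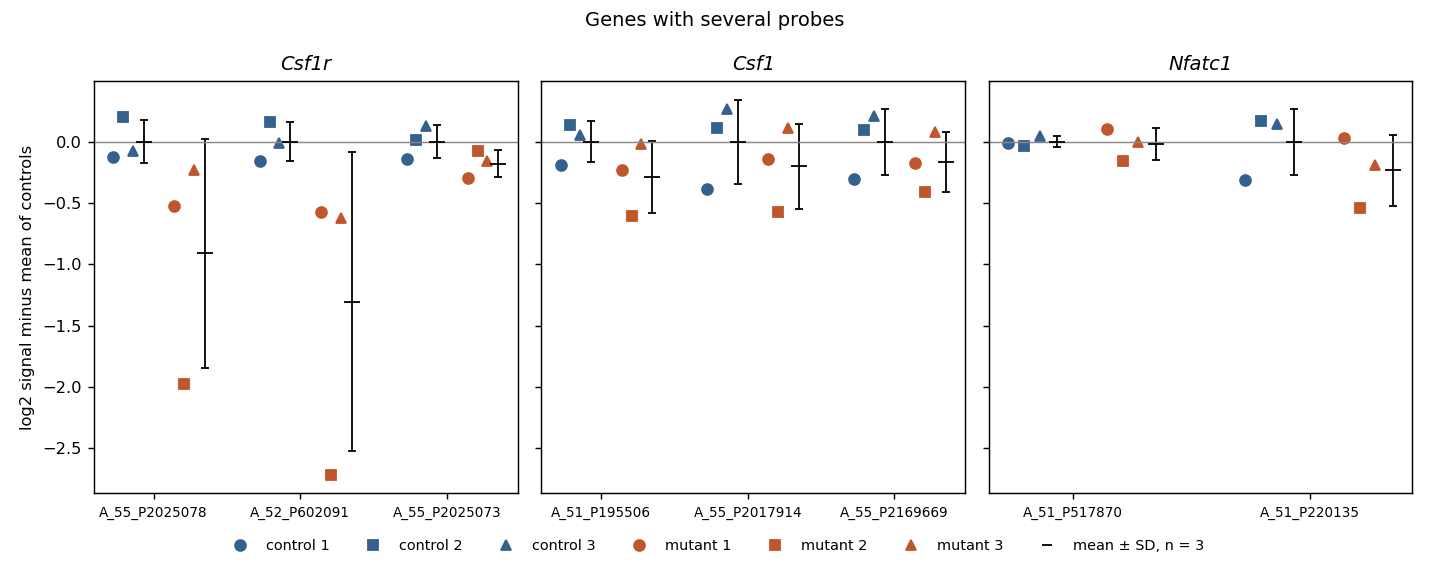
Level of each probe of Csf1r, Csf1 and Nfatc1 minus that probe's control mean (log2 units, vertical axis), with controls in blue, mutants in orange, 1 point per mouse and black bars for the mean ± SD of 3 arrays. Mutant 2 lies at -1.98 and -2.71 at 2 Csf1r probes and at -0.08 at the third, while the 3 Csf1 probes lie close together.

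Both fusion genes read lower by more than 1 log2 unit on average, with a wide spread among mutants. Dcstamp, needed for precursors to fuse into multinucleated cells, read -0.39, 0.43 and 0.74 on controls 1 to 3, and -0.73, -3.52 and -0.24 on mutants 1 to 3. Mutant 3 lay above control 1, and mutant 2 differed from the mean of the controls by -3.77. The difference was -1.75 (SE 0.85, 95% interval -3.81 to 0.30), or 3.37-fold lower in mutants, and -0.74 without mutant 2. Without both control 1 and mutant 2 it was -1.07. Ocstamp, its partner in fusion, read 0.11, 1.12 and 1.19 on controls 1 to 3, and 0.20, -2.05 and 0.42 on mutants 1 to 3. Mutants 1 and 3 both lay above control 1. The difference was -1.29 (SE 0.69, 95% interval -2.94 to 0.37), and -0.50 without mutant 2. Without both of those arrays, control 1 and mutant 2, it was -0.85. In both genes control 1 was the lowest control and overlapped with mutant 3. The interval of each gene spans 0. Control 1 and mutant 3 were the only arrays with Xist signal above Y-linked signal. On the remaining arrays, a choice made after seeing the data, the differences were -2.70 for Dcstamp and -2.08 for Ocstamp. The part of sex in these differences was not tested.

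Oscar, a receptor that costimulates osteoclast formation through an ITAM adaptor, depended least on mutant 2 among the 8 genes lower by more than 0.2. It read -0.97, -0.68 and -0.96 on controls 1 to 3, and -1.32, -1.73 and -1.26 on mutants 1 to 3. All 3 mutants lay below all 3 controls. The levels were -0.87 ± 0.17 (SD, n = 3) and -1.44 ± 0.25 (SD, n = 3). The difference was -0.57 (SE 0.17, 95% interval -0.98 to -0.16), or 1.48-fold lower, with an unadjusted p of 0.0145 and an adjusted p of 0.987 in limma. It was -0.42 without mutant 2 and ran from -0.42 to -0.71 over 20 alternatives, with adjusted p-values of 0.207 to 1.00. The unadjusted p was 0.0549 without control 2 and 0.0871 within the upper slide row.

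Siglec15, a sialic acid receptor of osteoclasts that pairs with the adaptor encoded by Tyrobp, was the only member not well above background on every array. It passed on 3 of 3 controls and 2 of 3 mutants, the exception being mutant 2. Its signal read -3.03, -2.88 and -3.37 on controls 1 to 3, and -4.34, -7.46 and -3.81 on mutants 1 to 3. All mutants lay below all controls. The difference of -2.11 (SE 0.91, 95% interval -4.31 to 0.09) rests in part on the mutant 2 value, which is only a bound for a spot not well above background. Without mutant 2 it was -0.98. With normexp background correction and percentile scaling it was -0.75.

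**Figure D3:**
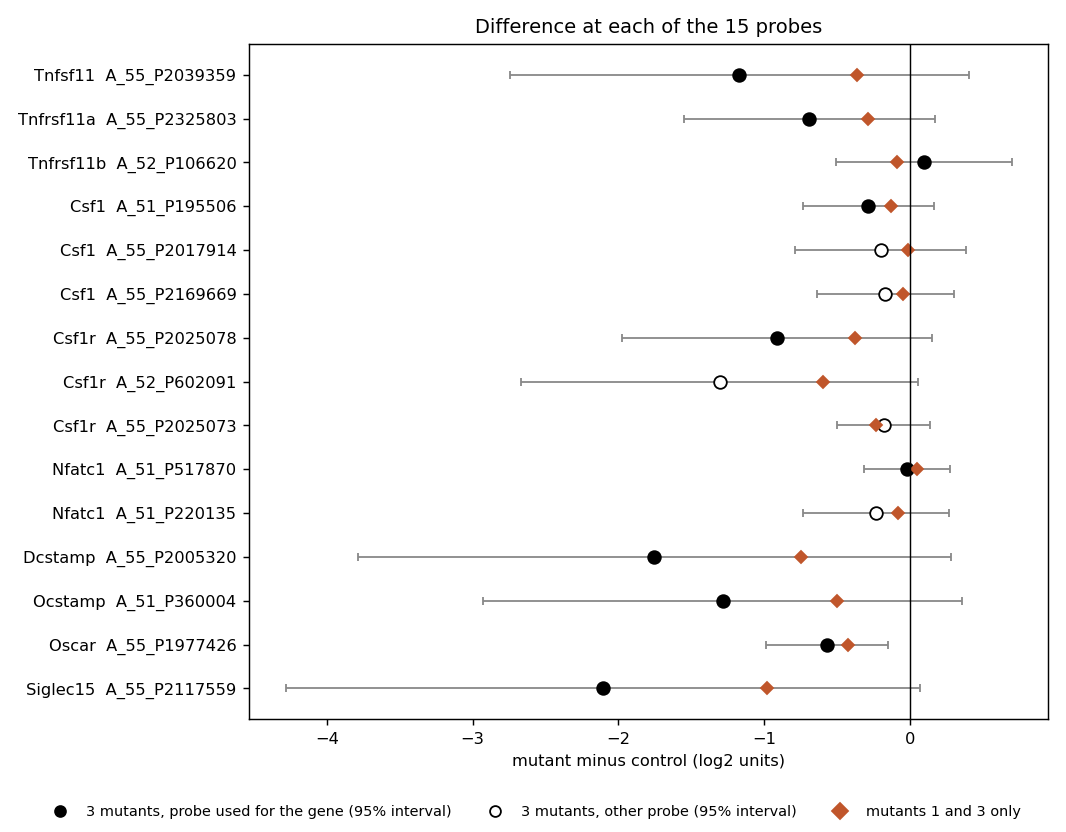
Difference between mutants and controls in log2 units (horizontal axis) at each of the 15 probes, as circles with 95% limma intervals, filled for the probe used for the gene, and the same difference over mutants 1 and 3 only as orange diamonds. The interval of Oscar alone lies entirely below 0, and the diamonds lie between -0.98 and 0.05.

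RefSeq sequence upstream of the start site was at hand for 4 of the 10 genes. It is shown for Oscar, the member with the smallest unadjusted p, and for the ligands Tnfsf11 and Csf1, which overlapped between groups. Each line holds the 250 bases before the start site in GRCm38.p6, 5′ to 3′ on the gene's own strand, which is the minus strand for all 3. The windows are chr7:3616158-3616407 for Oscar, chr14:78308044-78308293 for Tnfsf11 and chr3:107760470-107760719 for Csf1. Capitals mark matches on either strand to GGAAA (the NFAT core), TGANTCA (AP-1), GAGGAA (the PU.1 core) or CATGTG (an E-box bound by MITF). GGAAA and GAGGAA can share letters.
Oscar: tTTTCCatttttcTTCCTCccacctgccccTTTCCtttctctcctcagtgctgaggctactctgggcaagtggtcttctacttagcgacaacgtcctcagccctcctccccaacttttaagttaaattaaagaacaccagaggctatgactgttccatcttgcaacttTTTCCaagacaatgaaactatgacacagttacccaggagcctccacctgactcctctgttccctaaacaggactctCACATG
Tnfsf11: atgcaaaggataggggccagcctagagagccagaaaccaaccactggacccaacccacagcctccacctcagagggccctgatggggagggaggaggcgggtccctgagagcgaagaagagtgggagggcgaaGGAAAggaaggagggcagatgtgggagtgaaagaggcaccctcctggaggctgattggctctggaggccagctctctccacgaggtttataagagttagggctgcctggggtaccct
Csf1: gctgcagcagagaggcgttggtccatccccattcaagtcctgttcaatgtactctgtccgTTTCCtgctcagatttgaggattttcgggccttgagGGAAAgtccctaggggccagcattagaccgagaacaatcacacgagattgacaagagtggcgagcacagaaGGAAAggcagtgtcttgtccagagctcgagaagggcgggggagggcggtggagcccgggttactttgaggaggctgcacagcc

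The Oscar window holds 3 matches to GGAAA, 1 to GAGGAA and 1 to CATGTG, the last directly before the start site. The Tnfsf11 window holds 1 match to GGAAA, and the Csf1 window holds 3. Neither of these 2 windows holds another of the motifs, and the Tnfrsf11a window, which is not printed, holds 0 of the 4. Unlike the printed windows, the Tnfrsf11a window has 50 of its 250 bases inside the widest annotation of the gene. Of 32851 windows of this length in the table, 55.6% hold GGAAA, 6.75% TGANTCA, 23.3% GAGGAA and 12.3% CATGTG. A match to these letters is a description of the sequence, and binding was not measured.

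To see whether the osteoclast genes moved with the receptor of the whole lineage, 6 of them were set against Csf1r within each array. Oscar over Csf1r was nearly constant on controls, at -5.45, -5.48 and -5.48, and read -5.40, -4.35 and -5.63 on mutants 1 to 3. Mutant 2 was high and mutant 3 low. The difference was 0.34 (exact permutation p 0.7) and turned to -0.05 without mutant 2. It turned to -0.39 with the median of the Csf1r probes, which here and below is probe A_55_P2025073 alone. Nfatc1 over Csf1r was above all controls on every mutant, at -2.28, -1.09 and -2.68 against -2.80, -3.14 and -2.78. Its difference was 0.89 (exact permutation p 0.1, the smallest possible, and 0.35 adjusted over the 7 ratios), but 0.43 without mutant 2 and 0.05 with the median of the probes of each gene.

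Siglec15 over Csf1r was below all controls on every mutant, at -8.41, -10.09 and -8.18 against -7.51, -7.68 and -7.89. The difference was -1.20 (exact permutation p 0.1, adjusted 0.35). The mutant 2 value, and the mean that includes it, are only bounds, since Siglec15 was not well above background there. The difference was -0.60 without mutant 2, 0.14 with normexp and percentile scaling, and 0.24 with normexp and quantile scaling. Dcstamp over Csf1r differed by -0.84 (exact permutation p 0.3), by -0.37 without mutant 2 and by -1.57 with the median of the Csf1r probes. Ocstamp over Csf1r differed by -0.38 (exact permutation p 0.4), by -0.12 without mutant 2 and by -1.11 with that median. Tnfrsf11a over Csf1r differed by 0.22 (exact permutation p 0.4), by 0.09 without mutant 2, and turned to -0.51 with the median of the Csf1r probes. None of these ratios could pass the threshold of 0.05, since the design gives no permutation p under 0.1. Of the 6 ratios, 3 changed sign with the choice of probe or background correction.

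**Figure D4:**
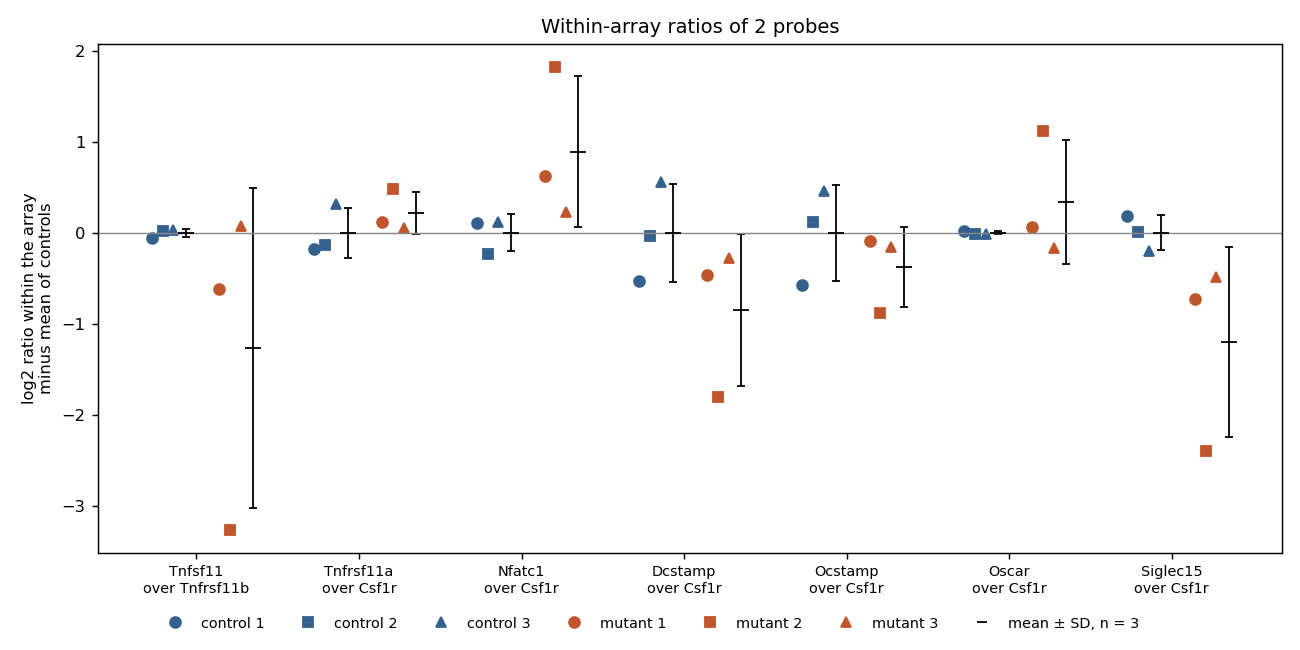
Log2 ratio of 2 probes within each array minus the mean of the controls (vertical axis) for 7 ratios, 1 point per mouse, with black bars for the mean ± SD of 3 arrays. For Nfatc1 and Siglec15 over Csf1r the orange mutants lie on 1 side of the blue controls, and mutant 2 lies farthest from 0 in every ratio.

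The genes that carry the signal of RANK inside the cell lay close to 0 as a list. Of 25 genes of RANK signalling 23 were tested, 16 with a difference above 0 and 7 below (40.0% of all features), with a median of 0.05. In limma 0 of them had an adjusted p below 0.05, and 0 an unadjusted p below 0.05. Of all features 1.89% were lower and 1.55% higher at that unadjusted p. Traf6, the adaptor of RANK, differed by 0.09 (SE 0.15). Fos, which cooperates with NFATc1 and is also an immediate early gene, read 1.03, -0.32 and -0.40 on controls and -0.47, 2.24 and -0.61 on mutants, with control 1 and mutant 2 high, and its difference of 0.28 turned to -0.64 without mutant 2. Nfkb2, of the noncanonical NF-kB arm, differed by -0.19 (SE 0.11). These genes are used by many cell types.

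The list of ITAM costimulation and calcium signalling, which runs beside RANK, was below 0 for 13 of 15 tested genes (40.0% of all features). Its median was -0.35 (-0.17 without mutant 2). At an unadjusted limma p below 0.05, 2 of its genes were lower (1.89% of all features). Tyrobp, the ITAM adaptor DAP12, read 2.47, 3.36 and 2.94 on controls and 2.24, -0.11 and 2.37 on mutants, without overlap. Its difference was -1.43 (SE 0.67), or -0.62 without mutant 2. Syk, the kinase that binds phosphorylated ITAMs, differed by -1.19 (SE 0.53), or -0.56 without mutant 2. Trem2, a receptor that signals through DAP12, differed by -1.01 (SE 0.79) but by only -0.04 over mutants 1 and 3. In the CSF1 receptor arm 9 of 10 genes were tested, and 7 were below 0 (40.0% of all features) with a median of -0.11. At an unadjusted limma p below 0.05, 1 of them was lower (1.89% of all features). Il34, the other ligand of CSF1R, differed by 0.20 (SE 0.38), with 0.62 over mutants 1 and 3 and -0.66 on mutant 2.

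Of 10 osteoclast transcription factors and repressors 6 were below 0 (40.0% of all features), with a median of -0.27. Spi1 (PU.1), which both macrophages and osteoclasts need, was well above background on 3 controls and 2 mutants. Its difference was -0.88 over mutants 1 and 3, both well above background. With mutant 2, whose value is only a bound, it was -1.68 (SE 0.68). On that value Spi1 was the 1 gene of the list lower at an unadjusted limma p below 0.05 (1.89% of all features). Mitf, which acts with PU.1 at osteoclast genes, differed by -0.18 (SE 0.16), or -0.04 without mutant 2. Irf8, a repressor of osteoclast formation, differed by -1.14 (SE 0.49), or -0.60 without mutant 2. None of the genes in this list passed the adjusted threshold in limma.

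Of 16 regulators and sheddases of the ligand 15 were tested, and 8 were below 0 (40.0% of all features) with a median of -0.09. Among them 2 were lower at an unadjusted limma p below 0.05 (1.89% of all features). Adam10, the targeted gene, was 1 of these. It read 1.61, 1.58 and 1.21 on controls and 0.15, -1.70 and 0.31 on mutants, again lowest on mutant 2, and differed by -1.88 (SE 0.53, adjusted p 0.987), or by -1.24 without mutant 2. These values come from 1 probe, and whether that probe lies in the deleted part is not stated in the labels. Adam17, a related sheddase, differed by -0.24 (SE 0.14). Mmp14, a membrane metalloproteinase that also sheds RANKL, differed by -0.18 (SE 0.23), which turned to 0.07 without mutant 2. Lgr4, a further receptor for RANKL, differed by 0.23 (SE 0.22), or 0.10 without mutant 2.

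Among 14 genes of osteoclast fusion and function 13 were below 0 (40.0% of all features), with a median of -0.76, and 3 had an unadjusted limma p below 0.05. These were Acp5 at -1.74 (SE 0.72), Ctsk at -1.16 (SE 0.37) and the vitronectin receptor subunit Itgb3 at -0.94 (SE 0.38), where 1.89% of all features were lower at that p. Without mutant 2 they were -0.85, -0.72 and -0.49. The proton pump subunit Atp6v0d2 differed by -1.90 (SE 0.87), by -0.88 without mutant 2 and by -3.94 on mutant 2 alone. All mutants lay below all controls for 5 of the 14 genes, against 3.75% of all features, and Acp5, Ctsk, Itgb3 and Atp6v0d2 were among the 5. For Atp6v0d2 this was nearly a tie, with mutant 3 at -0.395 and control 1 at -0.391. Calcr, the calcitonin receptor of mature osteoclasts, was well above background on 2 controls and 1 mutant. Over mutants 1 and 3 the list median was -0.42, against -0.37 for the 10 members. As for the members, 0 genes of this list had an adjusted p below 0.05.

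Markers of other cells also differed between the arrays. For monocytes and macrophages 12 of 15 markers were tested. Their list score, in which each gene is centred on its mean over the 6 arrays and the genes are then averaged, was 0.31 to 0.73 on controls and 0.09, -1.62 and 0.08 on mutants 1 to 3. Of these 12 genes 11 were below 0 (40.0% of all features), with a median of -1.05. At an unadjusted limma p below 0.05, 3 of the 12 were lower (1.89% of all features). Signal of Cd163 exceeded background on 0 of the 6 arrays. The score of the 10 members was likewise lowest on mutant 2, at 0.17 to 0.61 on controls and -0.02, -1.40 and 0.13 on mutants 1 to 3. The part of macrophage content in the members' differences was not tested.

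Cells that make RANKL were looked at in the same way. Osteoblast markers (9 of 10 tested) scored -0.23 to 0.31 on controls and 0.08, -0.69 and 0.29 on mutants 1 to 3. Osteocyte markers (5 of 6 tested) scored -0.09 to 0.51 on controls and -0.08, -0.98 and 0.21 on mutants 1 to 3. Of the 5 genes 2 were lower at an unadjusted limma p below 0.05 (1.89% of all features), while Sost exceeded background on 0 of the 6 arrays. Both lists were lowest on mutant 2, the array with the lowest Tnfsf11 signal, and both overlapped between the groups. Markers of marrow stroma and the adipocyte lineage (7 of 7 tested) scored 0.04 to 0.61 on controls and 0.15, -1.59 and 0.52 on mutants 1 to 3. Hypertrophic chondrocyte markers (6 of 6 tested) scored -0.36 to 0.32 on controls and -0.11 to 0.09 on mutants.

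B lymphocyte markers (8 of 10 tested) scored 1.39, 1.35 and -0.88 on controls and -0.91 to -0.15 on mutants, with control 3 inside the range of the mutants. T lymphocyte markers (5 of 9 tested) scored -0.17 to 0.30 on controls and -0.27 to 0.13 on mutants, while Cd3g and Trat1 exceeded background on 0 of the 6 arrays. Skeletal muscle markers (8 of 8 tested) ran from 2.37 on control 1 to -2.56 on mutant 2. Endothelial markers (10 of 10 tested) scored 0.11 to 0.50 on controls and 0.03, -1.18 and 0.11 on mutants 1 to 3. Neutrophil markers (9 of 10 tested) scored -0.65 to 1.81 on controls and -1.33 to -0.24 on mutants, and erythroid markers (9 of 10 tested) -1.25 to 1.74 and -0.85 to -0.15. Of the tissue named in the labels, all 12 chondrocyte markers were tested, 11 with a difference above 0 and 1 below (40.0% of all features). Their score was -0.36 to 0.04 on controls and -0.02, 0.42 and -0.02 on mutants 1 to 3. Mutant 2, lowest for osteoclast and macrophage genes, was thus highest for chondrocyte markers. The part of these cells in the members' differences was not tested.

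**Figure D5:**
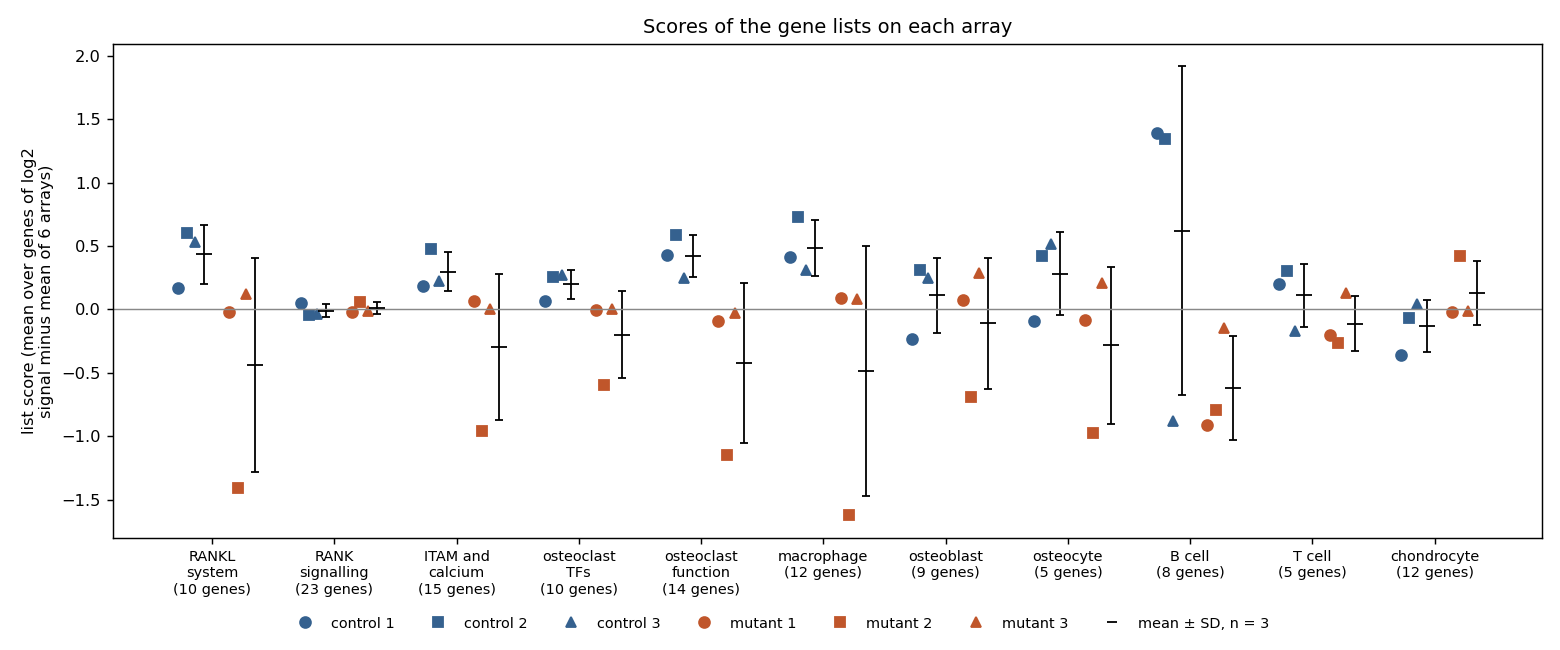
Score of 11 gene lists on each array (log2 units, vertical axis, each gene centred on its mean over the 6 arrays and then averaged), 1 point per mouse, controls blue and mutants orange, with black bars for the mean ± SD of 3 arrays. Mutant 2 is lowest for the RANKL system at -1.40, for macrophages at -1.62 and for osteoclast function at -1.15, is highest for chondrocytes at 0.42, and lies near 0 for RANK signalling.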

How the data were processed

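Total RNA from tibial cartilage of 3 control and 3 mutant mice was labelled with Cy3, per the labels' protocols (the label field names Cy5), and read on 1-colour Agilent arrays. The deposited spot values are intensity readings. Per the file headers and processing notes of the submitters, Feature Extraction 10.7.1.1 made them, and the design's build is mm9. The processed signal had background subtracted and had no scaling between arrays. A value table deposited by the authors holds a linear ratio to each array's 75th percentile and was used as an alternative only. This scale was read from its values, with column 75th percentiles of 1.002 to 1.004 and medians of 0.095 to 0.105 over non-control probes.

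Controls and outlier spots were left out, the log2 signal minus the array's 75th percentile was averaged over spots of a probe, and probes well above background on at least 3 arrays were kept. Accessions were matched to RefSeq symbols (GRCm38.p6), and the probe with the highest mean stood for a gene. The comparison of groups used R 4.3.3 and limma 3.58.1, two-sided, with Benjamini-Hochberg adjustment over 25494 features at 0.05, and ratios with exact permutation tests. The script was tested on simulated data. The files hold the median rather than the mean spot brightness, so normexp (offset 50) used the median. Members and gene lists were chosen with earlier results of these data known, so lists are described by counts, medians and scores, with no test of a list. The named genes outside the members were fixed by name, of which 1 is not reported here, and Cd163, Sost, Cd3g and Trat1 were named for lacking signal. Sample numbers in the labels were not taken to pair the mice.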

Additional observations from a re-analysis of the deposited data

How the results depend on the processing

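Of 375 recomputed values under the alternatives, 357 were classed as unchanged, 16 changed sign and 2 counts moved. Unchanged meant the same sign and side of the threshold for a gene, and a similar count. For a ratio it meant the same sign only, and for the members' median a shift below 0.604. Nfatc1 over Csf1r thus stayed in this class while falling from 0.89 to 0.05 with the median of probes. Alternatives that alter only the variance estimate leave each difference as it was. So do those that change only the filter or the choice among probes, where a gene keeps the same probe. Such values could hardly leave the unchanged class, and they are part of the 357. Over all features limma called 0 higher and 0 lower under every alternative except array weights, which gave 1 higher and 3 lower, none of them a member. The count of members below 0 was 8 to 10 and their median -0.37 to -1.10 when single arrays were left out. Sign changes concerned Tnfrsf11b, Nfatc1 and ratios to Csf1r. Tnfrsf11b was -0.0477 with array weights and -0.24 without both control 1 and mutant 2, and ran from -0.0906 to 0.33 when single arrays were left out. Nfatc1 was 0.0869 with array weights, 0.0446 without both control 1 and mutant 2 and 0.10 on the slide row with both groups, and ran from -0.0795 to 0.0514 when single arrays were left out. Tnfrsf11a over Csf1r was -0.51 with the median of probes and -0.00018 without both arrays. Oscar over Csf1r was -0.39 with the median of probes and -0.0397 without both arrays, and ran from -0.0488 to 0.59 when single arrays were left out. Siglec15 over Csf1r was 0.14 and 0.24 with normexp and percentile or quantile scaling. On the 4 arrays with Y-linked signal above Xist signal (controls 2 and 3, mutants 1 and 2), chosen after seeing the data, the members' median was -1.20. Siglec15 has no value where all arrays had to be above background, and array weights and the variance prior do not enter the permutation test of the ratios.

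With the replicate number as a block, limma called 0 features higher and 0 lower. In this balanced design the block cannot change a difference, so the members' median was -0.80 by construction. Deviations of same-numbered arrays correlated at 0.21, 0.06 and -0.16, so the numbers were not taken to pair the mice. With 3 mice a group, dim members such as Siglec15 are limited by signal over background.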
